A study of Clonorchis sinensis with 4 samples.

Results

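The miR-36 family of the liver fluke Clonorchis sinensis was represented by 3 entries, miR-36a-3p, miR-36b and miR-36b-3p, out of 55 known miRNA entries in the deposited tables. They were chosen by name, as entries of the known (mature) class whose name begins with miR-36 and a letter. Each was followed across 4 small RNA libraries, 1 each from eggs, metacercariae (larvae encysted in freshwater fish), extracellular vesicles secreted by adult worms, and adult worms. The series asked which small RNAs mark each stage of this parasite. The sources used here do not give strain, host, number of worms or the way eggs and vesicles were purified. Each group being a single library, nothing was replicated, so every interval below covers counting error only and every difference is one between 2 libraries. Tags carry no molecular identifiers and are not independent molecules, so these intervals can be too narrow.

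miRNAs are short RNAs that guide silencing complexes to messenger RNAs, mainly through the seed, bases 2 to 8. In the nematode Caenorhabditis elegans miR-36 belongs to the mir-35 family, which is abundant in oocytes and early embryos and is needed for embryonic development. The family is known from invertebrates, and its role in C. sinensis was not addressed by these data. Adult C. sinensis are hermaphrodites that carry eggs in the uterus, and how much egg RNA the adult library held was not tested. In whole worms, fewer cells of a type and less RNA per cell cannot be told apart.

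The sequence is shown for miR-36a-3p, the member with a mature sequence in the tables used and the one found in all 4 libraries. Written 5′ to 3′ as DNA, with the seed in capitals, it has 23 bases.
miR-36a-3p: cCACCGGGtagacattcattcgc
Within the vesicle data a sequence was given for 5 miRNAs, of which miR-36a-3p itself was the 1 that held its seed, CACCGGG. No b entry was among the 5, so this does not show whether the family shares the seed. The sequences of the b entries were not used here. The tables name miR-36a-3p after entries of Schistosoma mansoni and Schistosoma japonicum, miR-36b-3p after S. mansoni and miR-36b after C. sinensis. Whether the sequence shown was read from C. sinensis or taken from those Schistosoma entries was not tested. The sources used here do not say how tags were divided between entries of like name, so both the split between them and, if a tag was counted in more than 1 entry, their sum are uncertain. The predicted miRNAs were listed by position and carried no sequence to compare with this seed.

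The libraries held 4339591 miRNA tags for eggs, 8559610 for metacercariae, 302004 for vesicles and 3567193 for adults. Levels are given as RPM, tags per 1000000 miRNA tags of the library. A count of 0 was taken to allow 3 tags, which is 0.691 RPM in eggs, 0.350 in metacercariae, 9.93 in vesicles and 0.841 in adults.

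As a family, miR-36 was most abundant in eggs. Its 408992 egg tags were 9.42% of miRNA tags (95% Clopper-Pearson interval 9.40 to 9.45). In metacercariae the family had 20332 tags, or 0.238% (0.234 to 0.241). In vesicles 66 tags gave 0.0219% (0.0169 to 0.0278), against 23994 tags and 0.673% (0.664 to 0.681) in adults. The order from high to low was therefore eggs, adults, metacercariae and vesicles, and no neighbouring intervals overlapped.

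**Figure D1:**
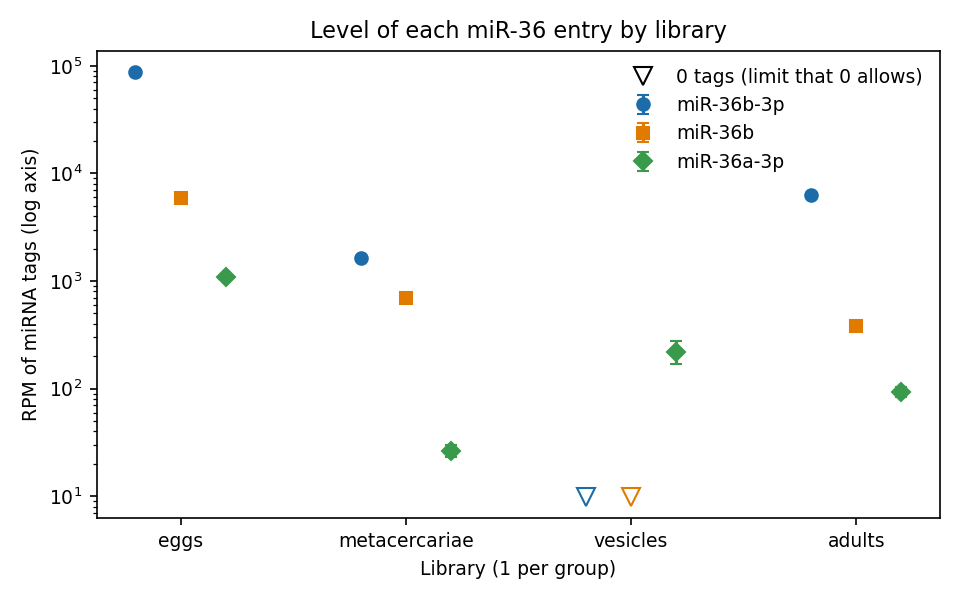
Level of each miR-36 entry in RPM of miRNA tags on a log axis, in 1 library each of eggs, metacercariae, vesicles and adults. Points are the measured levels, bars are 95% counting intervals, and open triangles mark 0 tags at the limit that 0 allows. miR-36b-3p reaches 87309 RPM in eggs, and in vesicles only miR-36a-3p was detected.

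miR-36b-3p carried most of the family in whole worms. It had 378887 tags in eggs, 14105 in metacercariae, 0 in vesicles and 22306 in adults, which are 87309, 1648, 0 and 6253 RPM. That placed it 5th of 147 miRNA entries in eggs, between the predicted miRNA novel_mir73 (404503 tags) and miR-2a-3p (257270 tags). In metacercariae it was 33rd of 161, next to novel_mir84 (14787 tags) and miR-307 (13464 tags), and in adults 21st of 152, next to miR-71b-5p (26787 tags) and novel_mir7 (21248 tags).

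miR-36b was the second member in whole worms. It had 25388 tags in eggs, 6002 in metacercariae, 0 in vesicles and 1353 in adults, or 5850.3, 701, 0 and 379 RPM. Unlike the other members it was higher in metacercariae than in adults. Its ranks were 18th in eggs (between novel_mir76 and novel_mir5), 44th in metacercariae (between miR-8-3p and miR-2f-3p) and 52nd in adults (between novel_mir75 and miR-1_1).

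miR-36a-3p was the rarest member in whole worms and the one that vesicles held. It had 4717 tags in eggs, 225 in metacercariae, 66 in vesicles and 335 in adults. The levels were 1087 RPM in eggs (1056 to 1118), 26.3 in metacercariae (22.96 to 29.95), 219 in vesicles (169 to 278) and 93.9 in adults (84.1 to 104.5). It ranked 36th in eggs (between miR-31-5p_1 and novel_mir131), 81st in metacercariae (between novel_mir105 and novel_mir108), 30th of 63 in vesicles (between a predicted miRNA with 77 tags and miR-755-3p with 57) and 74th in adults (between novel_mir24 and novel_mir119).

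Eggs held more of every member than metacercariae. The egg-to-metacercaria ratio of the family was 39.7 (39.1 to 40.2), and the members differed from each other in this. It was 53.0 for miR-36b-3p, 41.4 for miR-36a-3p and 8.34 for miR-36b (8.11 to 8.58). With the authors' RPM these ratios were 26.8, 20.9 and 4.22 in the same order, and that of the family was 20.1. Without miR-36b, an alternative chosen after seeing the data, the family ratio was 52.8. The size rule for counting an entry as changed asked for a fold of 4 or more with a pseudocount of 1 RPM, 10 or more tags in the higher library and a counting interval wholly past 2-fold. All 3 members were counted as higher in eggs, against 16.1% of the 186 miRNA entries compared. On the log2 scale their ratios were 5.73, 5.37 and 3.06 for miR-36b-3p, miR-36a-3p and miR-36b, where the median of all entries was 0.22. miR-36b-3p was 5th, miR-36a-3p 7th and miR-36b 21st from the top.

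Against adults the members moved closer together. As a whole the family stood 14.0-fold above adults (13.8 to 14.2). miR-36b was the entry with the highest fold of the 167 compared, at 15.4, miR-36b-3p was 2nd at 14.0 and miR-36a-3p was 4th at 11.6. All 3 were counted as higher, against 6.59% of all entries, and the median log2 fold of all entries was -0.60. Both this count and the one against metacercariae held under each of the 5 other scalings tried. With median-of-ratios size factors the fold was 24.7 for the family, 27.2 for miR-36b, 24.6 for miR-36b-3p and 20.4 for miR-36a-3p.

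Metacercariae and adults differed less, and the members did not go the same way. miR-36b-3p had a ratio of 0.264 (0.258 to 0.269) and miR-36a-3p of 0.280 (0.235 to 0.332), whereas miR-36b had 1.85 (1.74 to 1.96), each metacercariae over adults. The family ratio was 0.353, and 0.264 without miR-36b. None of the 3 was counted either way, where 9.34% of 182 entries were counted as higher and 23.6% as lower. The ratios kept their sides of 1 under every scaling tried, but their sizes did not. With the authors' RPM of all annotated tags miR-36b-3p had a ratio of 0.599, miR-36a-3p 0.636 and miR-36b 4.20, and miR-36b was then counted as higher. With the known miRNA total alone miR-36b-3p was counted as lower, at 0.249.

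**Figure D2:**
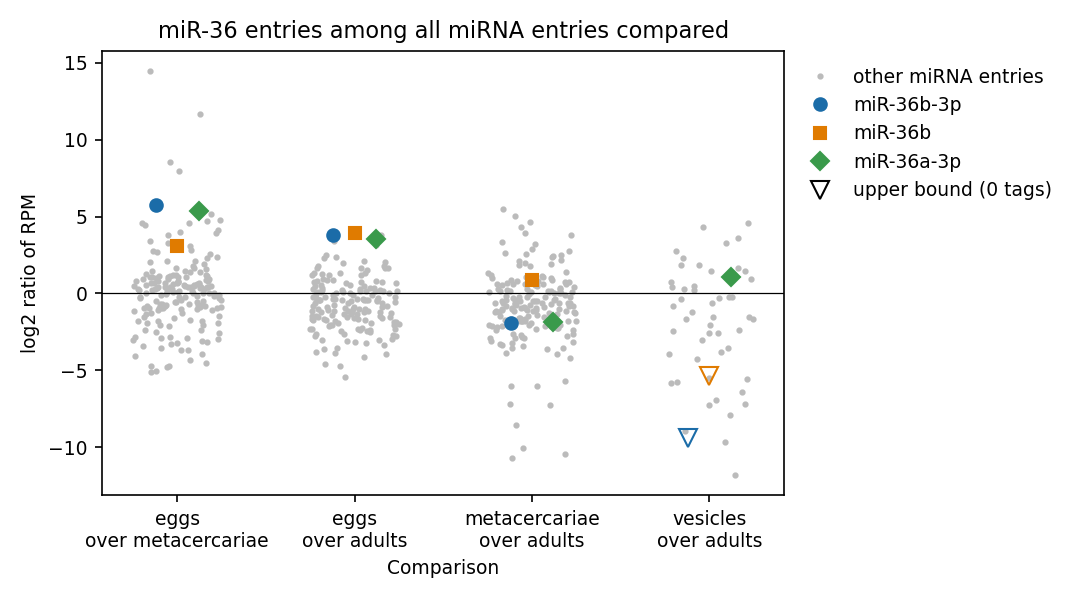
log2 ratio of RPM in 4 comparisons of 1 library with another. Coloured symbols are the miR-36 entries, open triangles are upper bounds where vesicles had 0 tags, and grey points are all other miRNA entries compared, with a pseudocount of 1 RPM. For vesicles over adults grey points are only entries listed in both. The 17 known miRNAs of adults that vesicles did not list are drawn there only where they are miR-36 entries. All 3 members sit near the top for eggs over adults and spread on both sides of 0 for vesicles over adults.

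Ratios between members within a library do not depend on scaling, and they showed where the makeup of the family changed. miR-36b-3p made up 92.6% of miR-36 tags in eggs (92.56 to 92.72), 69.4% in metacercariae (68.7 to 70.0) and 93.0% in adults (92.6 to 93.3). The share of miR-36b was 6.21% in eggs, 29.5% in metacercariae (28.9 to 30.2) and 5.64% in adults (5.35 to 5.94). miR-36b tags per miR-36b-3p tag were 0.0670 in eggs, 0.426 in metacercariae and 0.0607 in adults. Metacercariae held 7.02 times the adult ratio (exact conditional interval 6.59 to 7.47). Eggs held 1.10 times the adult ratio (1.04 to 1.17), a difference of small size beside that of metacercariae.

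The proportion of miR-36a-3p to miR-36b-3p varied less among eggs and whole worms. There were 0.0124 miR-36a-3p tags per miR-36b-3p tag in eggs (0.0121 to 0.0128), 0.0160 in metacercariae (0.0139 to 0.0182) and 0.0150 in adults (0.0134 to 0.0167). The metacercaria and adult values overlapped, with a ratio of ratios of 1.06 (0.892 to 1.26). The egg value was 0.829 times that of adults (0.741 to 0.930). Against both b entries together, miR-36a-3p stood at 0.0117 in eggs, 0.0112 in metacercariae and 0.0142 in adults.

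**Figure D3:**
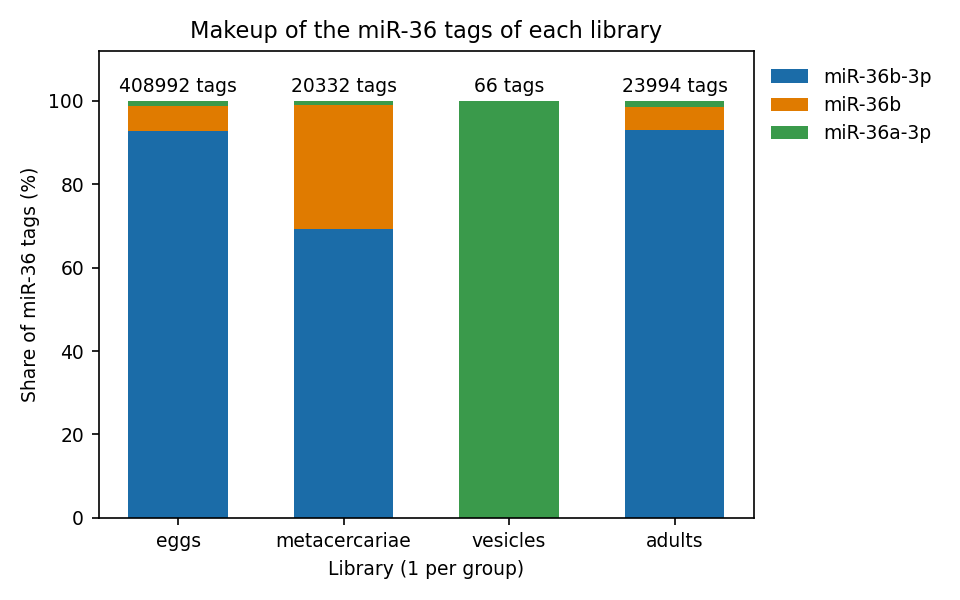
Share of the miR-36 tags taken by each entry in percent, in 1 library each of eggs, metacercariae, vesicles and adults, with the number of miR-36 tags above each bar. miR-36b takes 29.5% in metacercariae, and all 66 vesicle tags are miR-36a-3p.

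In secreted vesicles miR-36a-3p was the only member detected. They held 66 tags of miR-36a-3p and none of miR-36b or miR-36b-3p, against 335, 1353 and 22306 tags in adults. At the adult share of miRNA tags, a vesicle library of this depth would have held 1888 tags of miR-36b-3p and 115 of miR-36b. The entry miR-71a-5p alone held 209169 of the 302004 vesicle miRNA tags, against 726689 of 3567193 in adults. The median log2 fold of the 51 miRNA entries named in both tables was -1.50. The part of miR-71a-5p in the lower vesicle shares of other entries was not tested. On the sum of the 51 miRNA entries named in both tables, miR-36b-3p was 690.3-fold lower in vesicles and miR-36b 41.9-fold lower. Both folds are computed at the 3 tags that 0 was taken to allow in the library. The exact 95% upper limits of the ratios on the counts themselves were weaker bounds, 0.00178 for miR-36b-3p and 0.0294 for miR-36b. Over the other scalings the folds at 3 tags ran from 240.4 to 905 for miR-36b-3p and from 14.6 to 54.9 for miR-36b. They were lowest with median-of-ratios size factors. miR-36a-3p had a ratio of 2.12 (1.60 to 2.77). The family as a whole was 33.8-fold lower in vesicles (26.5 to 43.7), a ratio of 0.0296 that became 0.0851 with median-of-ratios size factors and 0.0768 without the most abundant entry. miR-36a-3p tags per b tag came to 22.0 in vesicles when the b entries are put at 3 tags, with an exact 95% lower limit of 17.4 on the counts themselves, against 0.0142 in adults (0.0127 to 0.0158). This within-library ratio does not depend on scaling, but it does depend on how tags were divided between entries of like name. Predicted miRNAs of vesicles had to be matched to those of the stages by position, and 12 had no match. Whether the miR-36 entries were annotated alike in vesicles and adults was not tested.

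These vesicle values stand in a library where absence was frequent. Of 53 known miRNAs listed in adults, 17 were unlisted in vesicles (32.1%), among them miR-36b-3p and miR-36b. miR-36b-3p had the second highest adult count of these 17, after miR-219-5p_1 with 38141 tags. Of the 13 known miRNAs with more adult tags than miR-36b-3p, 12 were listed in vesicles, and of the 39 with fewer, 24 were. Of the 18 with fewer adult tags than miR-36a-3p, 7 were listed in vesicles. Over these 53 known miRNAs, scaled to whole miRNA totals as an alternative chosen after seeing the data, 47.2% were counted as lower and 5.66% as higher in vesicles, beside 2 of 3 members counted as lower. On the 51 shared entries, of which miR-36a-3p was the member compared and was not counted, the shares were 43.1% lower and 11.8% higher. miR-36a-3p was counted as higher with median-of-ratios size factors (6.09-fold) and without the most abundant entry (5.50-fold), and its other ratios ran from 1.62 to 3.16. In the same vesicle library Rfam miRNA precursor classes took 2.96% of annotated tags, against 0.119% in adults. This was not particular to vesicles, as the share was 3.20% in metacercariae, and it was 0.337% in eggs. The part of these classes in the vesicle and metacercaria values was not tested. Entries of other classes named mir-35 or mir-36 were not found. The classes mir-361 (62 vesicle tags) and mir-363 (1 metacercaria tag) share only the first letters of the name.

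Over 119 miRNA entries averaging 10 RPM or more, the 5 with a stage profile nearest to miR-36b-3p were miR-36a-3p, miR-2c-3p, miR-2d-3p, miR-71b-5p and the predicted novel_mir73 (scaffold LN627598, 1961 to 2031). Likeness was the Euclidean distance between log2 profiles over the 3 stages, each centred on its mean, and is a description over 3 libraries. The distance was 0.30 for miR-36a-3p, then 1.21, 1.25, 1.32 and 1.33 in the order given. miR-36b was 11th, at 2.24. miR-2 is an invertebrate family that targets cell death genes in flies, and miR-71 is known for its part in lifespan in C. elegans. miR-2c-3p had 4551 RPM in eggs, 163 in metacercariae and 1064 in adults. miR-2d-3p had 4258, 242 and 833 RPM in the same order, miR-71b-5p had 36655, 2258 and 7509, and novel_mir73 had 93212, 6079 and 8677. On this scale all 4 were highest in eggs and lowest in metacercariae, with smaller folds than miR-36b-3p. The lowest stage of novel_mir73 turned with scaling. Its metacercaria-to-adult ratio was 0.701, but 1.59 with the authors' RPM, 1.33 with TMM and 1.38 with median-of-ratios size factors. Eggs over metacercariae ran from 15.3 for novel_mir73 to 27.9 for miR-2c-3p, and eggs over adults from 4.28 for miR-2c-3p to 10.7 for novel_mir73.

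**Figure D4:**
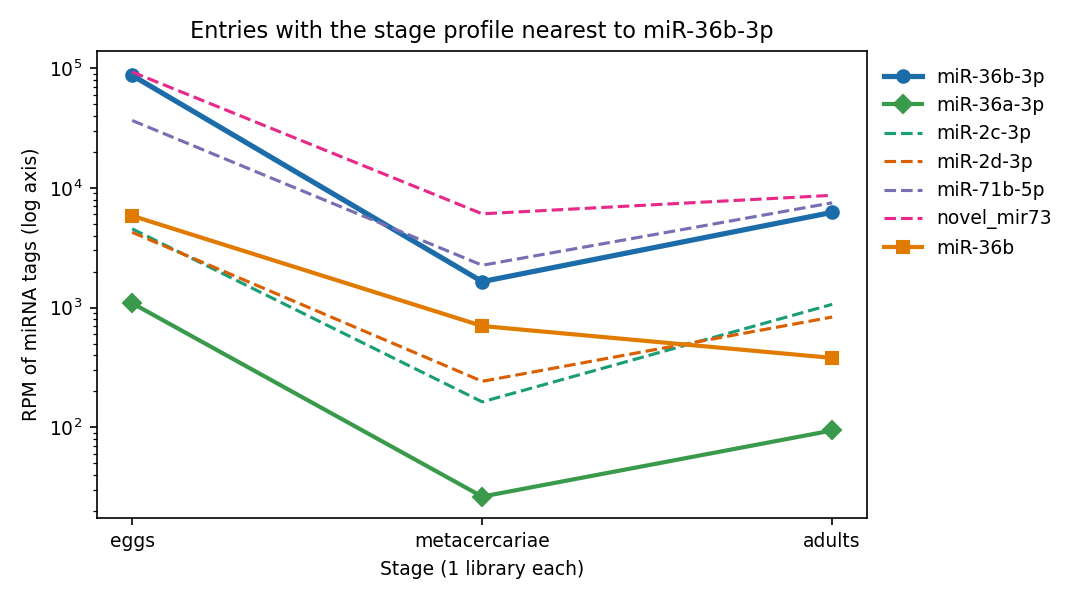
RPM of miRNA tags on a log axis in eggs, metacercariae and adults, 1 library each, for the miR-36 entries (solid lines) and the 4 other entries with the nearest stage profile to miR-36b-3p (dashed lines). On this scale all lines except miR-36b are lowest in metacercariae, though the lowest stage of novel_mir73 is adults with the authors' RPM, TMM or median-of-ratios size factors, and miR-36b is lowest in adults at 379 RPM.

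Set beside the members, the miR-71/miR-2 list of flatworm cluster miRNAs had 10 entries. Of these, 4 were counted as higher in eggs than in metacercariae (miR-2c-3p, miR-2d-3p, miR-2f-3p and miR-71b-5p) and 0 as lower, where 16.1% of all entries were higher and 16.1% lower, with a median log2 fold of 1.22 against 0.22 over all entries. For eggs over adults 3 of 10 were counted as higher, miR-2c-3p (4.28-fold), miR-2d-3p (5.11-fold) and miR-71b-5p (4.88-fold), and 0 as lower, where 6.59% of all entries were higher and 21.0% lower, with medians of 1.02 and -0.60. In metacercariae over adults 1 of 10 was counted as lower, miR-2c-3p (6.53-fold), and 0 as higher, where 23.6% of all entries were lower and 9.34% higher, with medians of -0.74 and -0.75. Vesicles did not list miR-2f-3p, miR-2d-3p, miR-2e-5p_1 and miR-71b-3p, at 4375, 2972, 12 and 2 adult tags, so these were left out there. In vesicles over adults 4 of the 6 shared entries were counted as lower and 0 as higher. Of all shared entries 43.1% were lower and 11.8% higher, with medians of -7.08 for the list and -1.50 for all. Of these calls, miR-2f-3p in eggs over metacercariae was lost with the authors' RPM (3.34-fold with the pseudocount), and miR-2c-3p in metacercariae over adults with that scaling, median-of-ratios size factors and TMM (2.85-fold, 3.30-fold and 3.44-fold lower). Other scalings also added calls, given here with the pseudocount. For eggs over metacercariae miR-2a-3p was counted as lower with the authors' RPM (4.24-fold) and miR-2b-3p as higher with the known miRNA total (4.13-fold). For eggs over adults miR-2f-3p was counted as higher with median-of-ratios size factors (5.47-fold). For metacercariae over adults miR-2e-5p_1, at 129 and 12 tags, was counted as higher under 4 of the 5 scalings (4.07-fold to 6.54-fold). For vesicles over adults miR-71a-5p was counted as higher under 3 (4.61-fold to 8.90-fold). It was itself the most abundant entry there. The scaling without that entry (8.03-fold) therefore set it against totals it was left out of, which raises its fold by construction.

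The heterochronic list, whose let-7 times late larval transitions in C. elegans, had 3 entries and ran the other way between eggs and adults. Its let-7-3p (26 egg tags, 290 adult tags) and miR-125c-5p (1 egg tag, 37 adult tags) were counted as lower in eggs, 2 of 3 against 21.0% of all entries, while the egg-to-adult ratio of let-7-5p was 0.255. The median log2 fold was -3.21, against -0.60 over all entries. Between eggs and metacercariae 0 of 3 were counted either way, where 16.1% of all entries were higher and 16.1% lower (medians -1.28 and 0.22). Metacercariae over adults had 1 of 3 lower, let-7-3p, and 0 higher. Of all entries 23.6% were lower and 9.34% higher there (medians -1.93 for the list and -0.75). Vesicles over adults had let-7-5p higher (9.58-fold) and let-7-3p lower on 3 vesicle tags. Of all shared entries 43.1% were lower and 11.8% higher there (medians 0.50 for the list and -1.50). The call of miR-125c-5p was lost with the authors' RPM (2.77-fold lower with the pseudocount), that of let-7-3p in metacercariae with the authors' RPM, median-of-ratios size factors and TMM, and that of let-7-3p in vesicles with median-of-ratios size factors and without the most abundant entry. With the known miRNA total miR-125c-5p was also counted as lower in metacercariae than in adults (4.08-fold with the pseudocount).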

How the data were processed

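Small RNA was measured in 4 libraries, 1 per group. Per the labels' protocols, Trizol was used for extraction and a standard Illumina procedure for the libraries. The authors deposited whole-number tag counts per small RNA entry and an RPM column, headed TPM per the file headers, which is the count per 1000000 annotated tags with no length correction. The sources used here do not give the aligner, class annotation or genome build. The deposited miRNA and piRNA tables of each stage held the same counts, so 1 was used. 1 deposited count column, from vesicles of another species, was not used.

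The members, lists and alternatives were chosen with earlier results of these data known. Counts were scaled to RPM of each library's known and predicted miRNA tags. Vesicles were scaled against adults by 51 entries named in both tables, 36 known and 15 predicted ones matched by overlapping position. Unlisted known miRNAs count as 0 and unlisted predicted ones as 9 tags, since these are listed from 10 upward. Ratios carry exact 95% conditional binomial intervals, and ratios of ratios exact conditional odds ratio intervals. No p-value was computed. Folds are ratios without a pseudocount, and the median log2 folds include 1 RPM. Entries named are all members, the 5 nearest profiles, rank neighbours, like-named classes and listed entries that were counted. Other scalings were the authors' RPM, the known miRNA total, the total without the entry most abundant over both libraries, median-of-ratios size factors and TMM (edgeR 4.0.16, R 4.3.3). Python 3.11.15, pandas 2.3.3, SciPy 1.17.1 and matplotlib 3.10.9 were used.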

Additional observations from a re-analysis of the deposited data

Results flagged for a closer look

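The Rfam precursor class mir-361, a mammalian family that shares only its first letters with miR-36, held 62 tags in vesicles, above the 3 tags that a count of 0 allows, and was unlisted in eggs, metacercariae and adults.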

How the results depend on the processing

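No call of a member reversed and no member's ratio crossed 1 under any scaling tried. The family fold for eggs over metacercariae was 39.7, and became 20.1 with the authors' RPM, 52.2 with the known miRNA total, 37.2 with TMM and 52.8 without miR-36b. For eggs over adults it was 14.0, and became 16.1, 17.4 and 17.3 with the same 3 scalings, 15.0 without the most abundant entry and 24.7 with median-of-ratios size factors. For metacercariae over adults the ratio of 0.353 became 0.802 with the authors' RPM, 0.334 with the known total, 0.378 without the most abundant entry, 0.669 with TMM, 0.698 with median-of-ratios size factors and 0.264 without miR-36b. For vesicles over adults 0.0296 became 0.0226 with the authors' RPM, 0.0768 without the most abundant entry, 0.0441 with TMM and 0.0851 with median-of-ratios size factors. Put at 3 vesicle tags, the ratio of miR-36b-3p in vesicles over adults ran from 0.00111 to 0.00416 over these scalings.

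The family share became 13.3% in eggs, 0.256% in metacercariae and 0.766% in adults when taken of known miRNA tags. Of all annotated tags it was 1.99% in eggs, 0.0992% in metacercariae, 0.00280% in vesicles and 0.124% in adults. miR-36a-3p per b tag became 0.0124 in eggs and 0.0160 in metacercariae against miR-36b-3p alone. A 2-fold rule counted 97 entries instead of 60 for eggs over metacercariae, 99 instead of 46 for eggs over adults and 107 instead of 60 for metacercariae over adults.

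The split of higher and lower entries moved with scaling. For eggs over metacercariae 30 and 30 became 19 and 39 with the authors' RPM. For eggs over adults 11 and 35 became 11 and 21 with the authors' RPM and 22 and 19 with median-of-ratios size factors. For metacercariae over adults 17 and 43 became 30 and 12 with the authors' RPM, 25 and 23 with TMM and 27 and 23 with median-of-ratios size factors. For vesicles over adults 6 and 22 became 13 and 16 without the most abundant entry, 11 and 17 with TMM and 13 and 15 with median-of-ratios size factors. The median log2 fold moved by up to 0.65 in each comparison of eggs, by 0.86 in metacercariae over adults and by 1.504 in vesicles over adults. The causes were not tested. The 5 nearest profiles were the same entries under the 3 alternatives tried, which were a smaller pseudocount, a higher abundance cut and the authors' RPM. This was largely fixed in advance and lends no weight to the list. Rescaling a library shifts all entries alike, and a higher cut only takes entries away. No replicate could be left out with 1 library per group. For the same reason no paired analysis was possible. Depth limits the vesicle values, with 302004 miRNA tags.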
